A study of Danio rerio with 2 samples.

Results

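The translation initiation factors of zebrafish hearts were examined as a family: the genes whose symbol begins with eif1 to eif6, leaving out the eif2ak kinases that phosphorylate one of them. The rule matched 62 of the 33396 genes listed, by symbol alone and without use of their measured values. The RNA-seq series held 2 libraries of total RNA from hearts at 72 hpf (hours post-fertilization), with 1 library per group. The control library was labelled wild type of the Tu strain, while the study's methods name Tg(cmcl2:GFP) embryos as controls and a mutant line crossed with that reporter, and the second library was labelled homozygous for smyd4 L544Efs*1, also of the Tu strain. These mutants, written MZsmyd4 L544Efs*1, lacked intact smyd4 from both the maternal supply and their own genome. They carry a frameshift made with CRISPR/Cas9 in smyd4, which encodes a lysine methyltransferase. Hearts were pooled from many embryos per group and dissected under a green reporter driven in cardiomyocytes, so neighbouring tissue could be carried along.

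Initiation is the step of protein synthesis that places a ribosome on the start codon of an mRNA. The small ribosomal subunit, bound by eIF1, eIF1A, eIF3 and eIF5, receives the initiator tRNA from eIF2, joins an mRNA whose cap is held by eIF4E, eIF4G and the helicase eIF4A, and scans to the start codon, where eIF5B lets the large subunit join. Each cycle leaves eIF2 bound to GDP, which eIF2B exchanges for GTP, and the 4E-BP proteins keep eIF4E from eIF4G when growth signalling through mTOR is low. Growing hearts rely on this machinery to build contractile protein. In the zebrafish, many of its components are encoded by a pair of gene copies.

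The mutated gene was looked at first. smyd4 (ENSDARG00000060983) had the same level, 2.42 and 2.42 FPKM (reads scaled by gene length and library total), in both libraries, resting on 111 control reads and 106 reads of the other. Their ratio of 1.00 had exact 95% limits (Clopper-Pearson) of 0.760 and 1.32, and became 0.700 under TMM scaling (trimmed mean of M values) and 0.612 under upper-quartile scaling. The study describes the mutant embryos as lacking smyd4 transcript, from qRT-PCR and in situ hybridization, and the level measured here goes against that description. It also reports that the insertion was checked in the mutants by PCR and sequencing of cDNA. The label gives a genotype and no transcript level, and FPKM values cannot show whether the insertion is present. The library is therefore named by its label throughout, and each direction below is a difference between the libraries as labelled, which these data do not tie to the genotype. Read totals worked out from the FPKM values were 18840114 and 17960132, and the 10 genes with most reads held 18.2% of the control reads against 10.5% of the others. Marker genes are called higher or lower here where log2(FPKM + 1), library labelled mutant minus control, differed by over 1. Among all genes tested, 33.3% were higher and 11.6% lower by this rule. The summed level of 8 heart muscle markers (6 of 8 higher) went from 2250 to 5827 FPKM, including myl7 from 642 to 2977 FPKM. All 7 liver and yolk markers tested were lower, with a sum of 32899 FPKM against 7201 FPKM, as were 4 of 5 skeletal muscle markers (7733 against 1845 FPKM) and 3 of 4 exocrine pancreas markers tested (73.2 against 5.46 FPKM). Lens crystallins were near 0 in the control library, with 5 of 6 lens genes at 0, and summed to 61.2 FPKM in the other. Epidermis markers, with 2 of 6 higher and 1 lower, went from 16755 to 22687 FPKM as a sum, including krt4 from 8063 to 16552 FPKM. Sums for erythrocyte markers were 3077 and 2364 FPKM, though 4 of 7 were higher. Neural markers summed to 736 and 675 FPKM, though 0 of 7 tested were higher and 3 were lower. Endothelium markers summed to 65.5 and 129 FPKM, with 1 of 4 higher and 0 lower. The part of this difference in tissue makeup in the results below was not tested. In bulk RNA, fewer cells of a type and less RNA per cell cannot be told apart.

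A gene was compared when it reached 1 FPKM in either library, which 17800 genes and 60 of the 62 initiation factors did. The left-out members were eif4e1b, at 0 in both libraries, and an eif3b copy (ENSDARG00000074213), at 0 and 0.0731 FPKM from 2 reads. The measure was the difference in log2(FPKM + 1), library labelled mutant minus control, and a gene is said to have risen or fallen where it exceeded 1 in either direction. With 1 library per group there is no replicate check and no test of genotype, and every interval given covers counting error only. The median difference of all genes was 0.49, so the library labelled mutant lay above control over most of the table, and each value can be read against that shift.

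In all, 31 initiation factors were higher by over 1, which is 51.7% of those tested against 33.3% of all genes. Only eif2b2 was lower by over 1, which is 1.67% against 11.6% of all genes. The median difference of the 60 factors was 1.02, or 0.53 above that of all genes, and 41 of them lay above the all-gene median. Their summed level went from 5837 to 9825 FPKM, and their share of all FPKM from 0.716% to 1.40%. The excess was small among abundant genes: where the higher of both values reached 10 FPKM, 53.4% of the factors (31 of 58) and 45.2% of all 8121 genes were higher, while 1.72% and 14.0% were lower. TMM scaling, which removes a shift of 0.52, left 16 higher (26.7% against 21.2% of all genes) and 7 lower (11.7% against 19.3%). After upper-quartile scaling, which removes 0.71, 10 factors were higher (16.7% against 17.3% of all genes) and 9 were lower (15.0% against 23.1%). The order of the factors by level was similar in both libraries, with a Spearman correlation of 0.88 across the 60 genes, which are not independent replicates. The plot of each factor in both libraries shows most points above the line of equal levels and eif5a2 farthest from it.

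**Figure D1:**
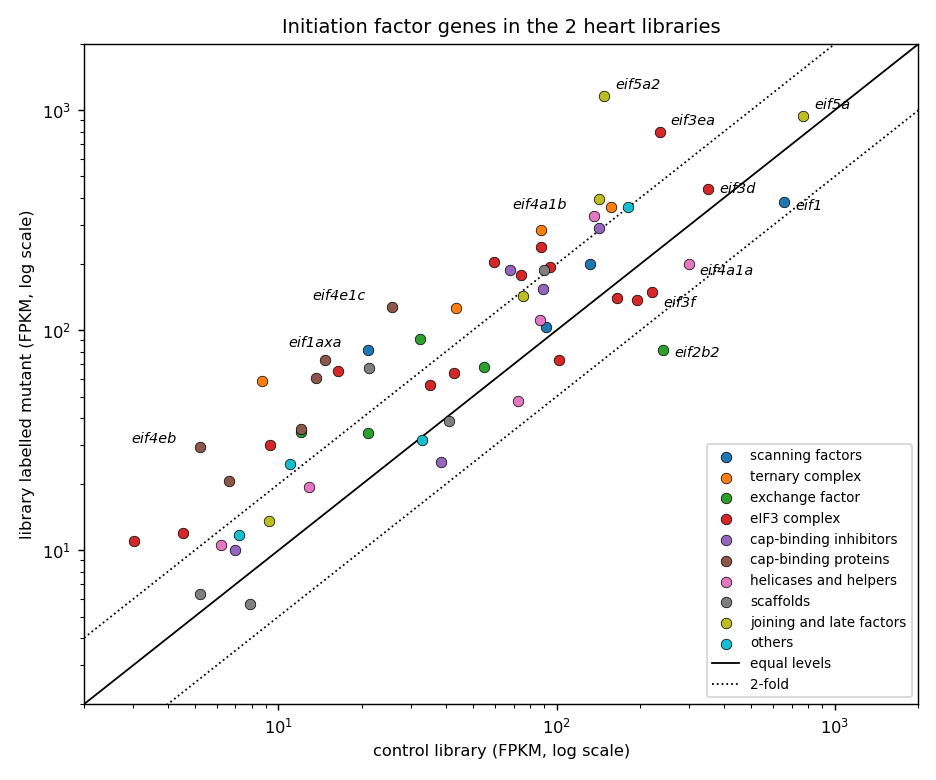
Levels of the 60 tested initiation factor genes in the control library (x axis, FPKM, log scale) and in the library labelled mutant (y axis, FPKM, log scale), 1 point per gene, coloured by role. eif5a2 went from 148 to 1159 FPKM, whereas eif2b2 went from 242 to 81.2 FPKM and is the point below the lower dotted line.

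The scanning factors, which keep the small subunit in a form that can move along the mRNA and reject wrong start codons, did not move as a group. eif1 (ENSDARG00000012688), the most abundant of them, had 657 FPKM in the control library against 381 FPKM, a difference of -0.78. This did not pass the threshold as deposited and did after TMM scaling, at -1.30. Its second copy eif1b was at 91.7 and 104 FPKM, with a ratio of 1.13 and an interval from 0.980 to 1.31. The eIF1A genes differed from each other. eif1axa (ENSDARG00000029003) rose from 21.0 to 81.2 FPKM, a ratio of 3.86 (3.45 to 4.34), whereas eif1axb stood at 132 and 200 FPKM, a difference of 0.59. Over the 4 genes 1 was higher and 0 lower, and the median of 0.39 turned negative with the other scalings, at -0.13 (TMM) and -0.32 (upper quartile).

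All 4 genes for eIF2, the GTP-binding carrier of the initiator tRNA, rose, against 33.3% of all genes, with a median of 1.60. The alpha subunit, whose phosphorylation stops initiation in stressed cells, has a pair of copies under the symbol eif2s1. The lesser copy (ENSDARG00000005827) went from 8.75 to 58.7 FPKM, a ratio of 6.72 (5.88 to 7.70). The major copy (ENSDARG00000052178) went from 43.5 to 126 FPKM, a difference of 1.51. The beta subunit gene eif2s2 (ENSDARG00000053047) went from 88.0 to 286 FPKM, a difference of 1.69. The gamma subunit gene eif2s3b (ENSDARG00000008292), which binds the GTP, was the most abundant and went from 157 to 363 FPKM, a difference of 1.20. The 4 genes went from 297 to 833 FPKM as a sum, a ratio of 2.80. Their count past the threshold depended on the scaling, with 3 of 4 under TMM scaling (21.2% of all genes). Under upper-quartile scaling it was 1 of 4, near the 17.3% of all genes, and their median stayed above 0 at 0.90. Levels per length of alpha against gamma went from 0.333 to 0.510 within a library, and of beta against gamma from 0.560 to 0.788.

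The subunits of eIF2B, the exchange factor that reloads eIF2 with GTP, moved apart. eif2b2 (ENSDARG00000041397), which encodes the beta subunit of its regulatory core, fell from 242 to 81.2 FPKM, a ratio of 0.336 (0.318 to 0.354). It was the fifth most abundant initiation factor in control and the only one to fall, with a difference of -1.56 that was -2.08 after TMM scaling. eif2b1 (ENSDARG00000091402), the alpha subunit of the same core, rose from 12.1 to 34.5 FPKM, a difference of 1.44. eif2b4 (ENSDARG00000014004), the delta subunit, rose from 32.3 to 91.7 FPKM, a difference of 1.48, and both were under 1 after TMM scaling. The genes of the catalytic part, eif2b3 for gamma and eif2b5 for epsilon, were at 54.6 and 68.4 FPKM and at 21.0 and 34.1 FPKM. In control hearts eif2b2 was thus 2.02 times the sum of the other 4 subunit genes, against 0.355 times in the other library, a within-library change of 5.68-fold that no scaling between libraries alters. The median of the 5 genes was 0.67 as deposited and -0.01 under upper-quartile scaling.

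eIF3, the largest initiation factor, coats the solvent side of the small subunit and connects it with the mRNA. Of its 16 tested genes 9 rose (56.2% against 33.3% of all genes) and 0 fell, with a median of 1.13. Under upper-quartile scaling 3 of the 16 were higher and 3 lower, near the shares of all genes (17.3% and 23.1%), and the median was 0.44. eif3ea (ENSDARG00000090697), for subunit e, rose from 235 to 795 FPKM, a difference of 1.75. eif3l (ENSDARG00000101082) rose from 59.7 to 205 FPKM, a difference of 1.76. eif3j (ENSDARG00000053370), a loosely held subunit that lies near the decoding centre, rose from 16.3 to 65.5 FPKM, a difference of 1.94. These 3 passed the threshold under every scaling. eif3b (ENSDARG00000059654), the scaffold of the part of the complex near the mRNA entry, rose from 87.8 to 238 FPKM, and eif3i (ENSDARG00000017445), which binds to it, rose from 74.8 to 178 FPKM. eif3m (ENSDARG00000013931) rose from 94.3 to 194 FPKM, a difference of 1.04 that was 0.52 under TMM scaling.

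A further 4 subunit genes of eIF3 lay below 0 instead. eif3f (ENSDARG00000077533) was at 221 and 149 FPKM, a difference of -0.57. eif3g (ENSDARG00000016889) was at 194 and 137 FPKM, a difference of -0.50. eif3k (ENSDARG00000068289) was at 102 and 73.6 FPKM, a difference of -0.47, and the major eif3h copy (ENSDARG00000102452) was at 164 and 140 FPKM, a difference of -0.23. None of these passed the threshold as deposited, though eif3f at -1.08 and eif3g at -1.01 did under TMM scaling. The most abundant subunit gene in control, eif3d, whose product binds caps on some mRNAs in human cells, was at 351 and 439 FPKM, and the largest, eif3a, at 42.7 and 63.6 FPKM. With copies summed, 9 of 13 subunits were at the higher level in the library labelled mutant and 4 were not. By the log2 ratio of these sums, b, e, i, j, l and m were past 1. Subunits a, c and d were above 0 without passing it. Subunits known from mammals to sit side by side did not all share a direction. Subunits f and h both lay below 0 while m rose, and k lay below 0 while e and l both rose. Likewise g lay below 0 while b and i both rose. The spread of the 13 levels was nevertheless alike in both libraries, with a highest-to-lowest ratio of 13.7 in control and 14.3 in the other. The plot of the subunits shows f, g, h and k as the only ones whose control point is the upper one.

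**Figure D2:**
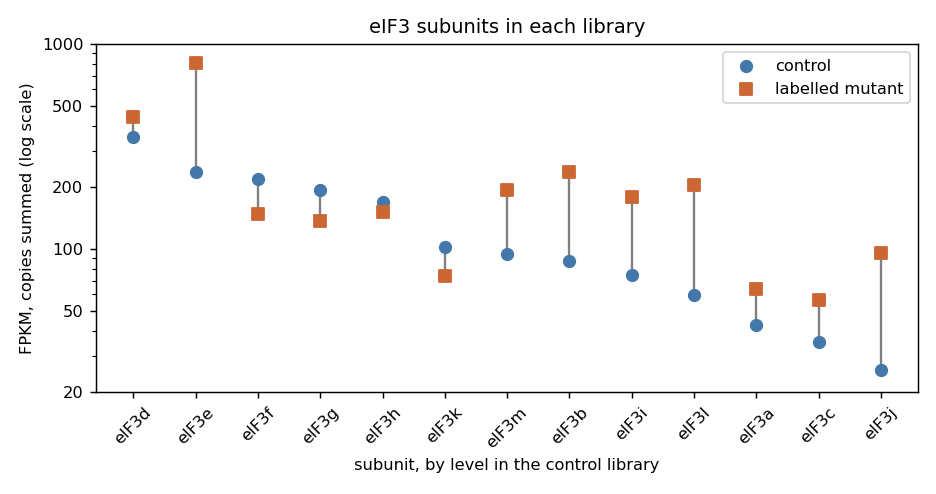
Level of each eIF3 subunit in the control library (blue circles) and in the library labelled mutant (orange squares), with gene copies summed and FPKM on a log axis. Subunits are ordered by their control level. The e subunit went from 238 to 806 FPKM and the j subunit from 25.7 to 95.6 FPKM, and 4 of 13 subunits, f, g, h and k, were lower in the library labelled mutant.

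The proteins of the eIF4E family, which bind the mRNA cap, formed the group with the highest median, at 2.16, and all 6 tested genes rose. eif4e1c (ENSDARG00000012274) was the most abundant and went from 25.5 to 127 FPKM, a ratio of 4.97 (4.53 to 5.47). eif4e (ENSDARG00000077012) went from 14.6 to 73.1 FPKM, a difference of 2.24. eif4eb (ENSDARG00000013274) went from 5.23 to 29.5 FPKM, a ratio of 5.63 (4.59 to 6.96). eif4e3 (ENSDARG00000005078), from a divergent class that holds the cap differently in mammals, went from 13.7 to 60.8 FPKM, a difference of 2.08. The class that in mammals represses rather than promotes initiation rose less, with eif4e2 (ENSDARG00000038585) from 6.66 to 20.6 FPKM and eif4e2rs1 (ENSDARG00000015835) from 12.02 to 35.5 FPKM, both at a difference of 1.49. The sum of the family went from 77.7 to 346 FPKM, a ratio of 4.45. Under TMM scaling 5 of the 6 stayed over 1 and under upper-quartile scaling 4, with a median of 1.48. The share of members higher was 6 of 6 against 33.3% of all genes, and the oocyte form eif4e1b was at 0 in both libraries.

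Of the 5 genes whose products hold eIF4E back, 2 rose and 0 fell (40% higher, near the 33.3% of all genes), with a median of 0.78 that was 0.07 under upper-quartile scaling. eif4ebp1 (ENSDARG00000043608) went from 142 to 293 FPKM, a difference of 1.03, and eif4ebp2 (ENSDARG00000031819) from 67.9 to 189 FPKM, a difference of 1.46. Both passed the threshold as deposited and neither did under TMM scaling, at 0.52 and 0.95. The copies of eif4ebp3 differed in sign, with ENSDARG00000041607 at 89.1 and 154 FPKM and ENSDARG00000054916 at 38.3 and 25.2 FPKM. eif4enif1, which carries eIF4E into the nucleus, was at 6.96 and 10.02 FPKM. The 3 eIF4E genes of the initiating class (eif4e, eif4eb and eif4e1c) summed to 0.135 of the 4E-BP sum in control hearts and to 0.348 of it in the other library, a within-library change of 2.58-fold.

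The scaffold genes of the cap-binding complex were mixed. eif4g1 (ENSDARG00000006200), the main scaffold between eIF4E and eIF3, was at 41.0 and 38.5 FPKM, a difference of -0.09. The eif4g3 copies were at 7.87 and 5.69 FPKM (ENSDARG00000077215) and at 5.21 and 6.31 FPKM (ENSDARG00000074331). eif4g2 encodes a related protein that lacks the eIF4E site and works in initiation without eIF4E. Both of its copies rose, ENSDARG00000057167 from 90.3 to 189 FPKM and ENSDARG00000020377 from 21.1 to 67.3 FPKM, and their sum against eif4g1 went from 2.72 to 6.64. Over the 5 scaffold genes 2 were higher and 0 lower, and the median of 0.24 turned to -0.20 under TMM scaling.

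The helicase eIF4A unwinds the mRNA leader, and its gene copies changed places. eif4a1a (ENSDARG00000092115) was at 298 and 200 FPKM, a difference of -0.57, or -1.09 under TMM scaling. eif4a1b (ENSDARG00000003032) rose from 136 to 330 FPKM, a difference of 1.27. The b copy thus went from 31.4% to 62.2% of their sum. eif4a2 was at 6.23 and 10.6 FPKM. Of the cofactors that stimulate the helicase, eif4b was at 86.9 and 112 FPKM, eif4ba at 12.9 and 19.5 FPKM and eif4h (ENSDARG00000042252) at 72.6 and 47.5 FPKM, a difference of -0.60. The median of the 6 genes was 0.46, turning to -0.04 under TMM scaling.

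The late factors held the gene with the widest difference of the family. eif5a2 (ENSDARG00000056186) went from 148 FPKM (3533 reads) to 1159 FPKM (26347 reads), a ratio of 7.82 (7.55 to 8.11) and a difference of 2.96. eIF5A, the only protein known to carry the modified lysine hypusine, helps ribosomes through poor peptide bonds and in termination, and despite its name acts mostly after initiation. The difference was 2.25 at its lowest over the settings tried, under upper-quartile scaling, and eif5a2 moved from rank 12 to rank 1 among the factors. eif5a (ENSDARG00000017235), the leading factor of the control library, was at 772 and 941 FPKM, a difference of 0.29. eif5 (ENSDARG00000003681), which triggers GTP hydrolysis on eIF2, rose from 142 to 395 FPKM, a difference of 1.47. eif6, which keeps free large subunits from joining, was at 75.8 and 144 FPKM, a difference of 0.91, and eif5b at 9.23 and 13.6 FPKM.

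The remaining members carry the name for other reasons. eif4a3 (ENSDARG00000102978), a helicase relative that anchors the exon junction complex left by splicing, went from 181 to 365 FPKM, a difference of 1.01 that was 0.50 under TMM scaling. eif2d (ENSDARG00000012929), which acts in ribosome recycling and in initiation without eIF2, went from 11.0 to 24.8 FPKM, a ratio of 2.25. eif2a, which is unrelated to eIF2 alpha, was at 32.9 and 31.8 FPKM, with a ratio interval from 0.890 to 1.05. eif1ad was at 7.19 and 11.7 FPKM. Across all 60 tested factors, the counting interval of the ratio excluded 1 for 58 and included it for eif1b and eif2a, and half-widths had a median of 0.10 on the log2 scale. That share over all genes was not computed, and a ratio of 1 leaves out the all-gene shift of 0.49, so the count is not read as a result about the family. The recovered reads are the smallest that give the values, so an interval can be too wide, which may hold for eif1b, with a recovered length of 210 bases against 1016 for eif1. Against the 33.3% of all genes higher, the share was 1 of 4 for the scanning factors, 16.7% for the helicases and their helpers, 40% each for eIF2B, the scaffolds and the late factors, and 50% for these last 4 members.

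**Figure D3:**
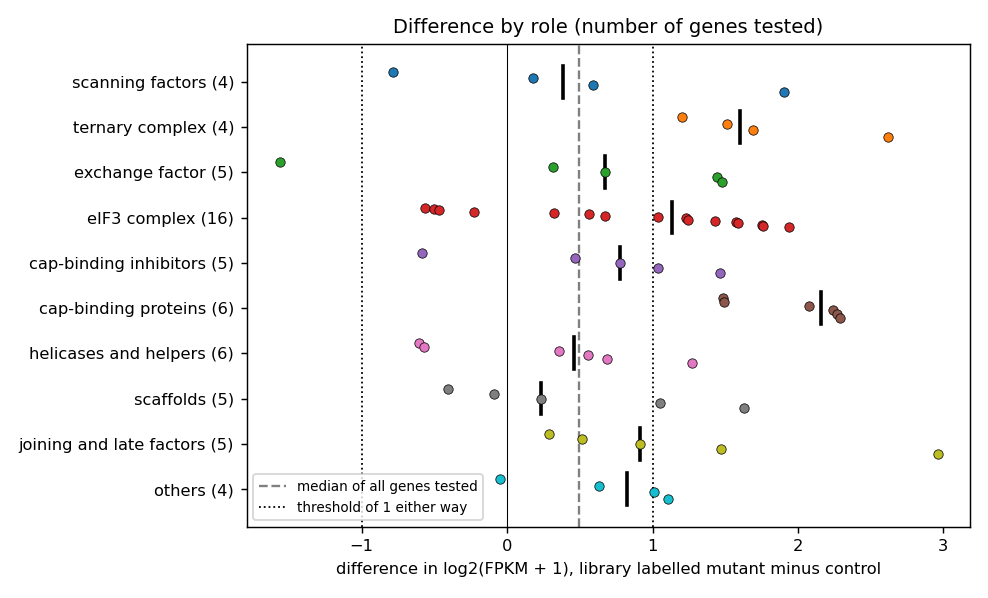
Difference in log2(FPKM + 1), library labelled mutant minus control, for each of the 60 tested genes by role, with a black bar at each group's median. The dashed line is the median of all 17800 genes (0.49) and dotted lines mark 1 in either direction. All 6 cap-binding and all 4 ternary complex genes lie beyond 1, and eif2b2 in the exchange factor group is alone beyond -1.

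Shares within pairs of copies do not depend on scaling between libraries, so they were compared for 12 pairs (levels per length, FPKM). The copy that was lower in control was set as the numerator, which itself favours a rise, so the number of rises is not read. In 6 of the 12 pairs the share moved by more than 10 percentage points. How often pairs of other genes move that far was not computed, so this count is not read as particular to the family. eif5a2 went from 16.1% to 55.2% of the eif5a pair, and with eif4a1b it crossed the line of equal shares. A crossing also occurred in the low eif4g3 pair, from 39.8% to 52.6%. eif1axa went from 13.7% to 28.9% of its pair and the lesser eif2s1 copy from 16.7% to 31.8%. eif4ebp3 ENSDARG00000054916 went the other way, and its share dropped by 15.9 percentage points to 14.1%. In the eif3e pair the lesser copy held 1.27% and 1.36%. Whether reads were split between near-identical copies is not given in the sources used here, so the level of a single copy is uncertain to that extent. The plot of the pairs sets these shares side by side.

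**Figure D4:**
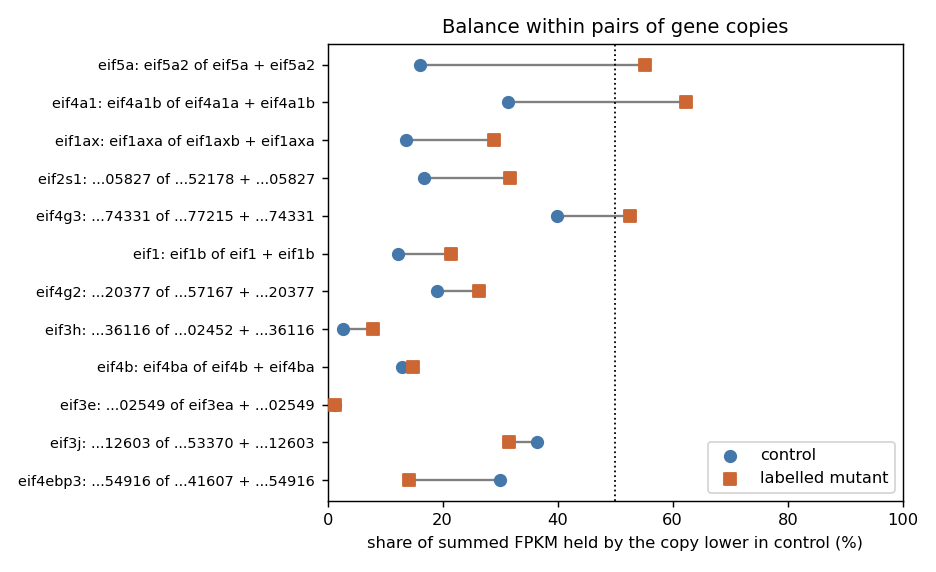
Share of a pair's summed FPKM (x axis, %) held by the copy that was lower in the control library, with control as blue circles and the library labelled mutant as orange squares, for 12 pairs with Ensembl identifiers shortened to their last digits. The eif5a2 share went from 16.1% to 55.2% and the eif4a1b share from 31.4% to 62.2%, and the dotted line marks equal shares.

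The other parts of the translation machinery gave a mixed picture beside the initiation factors. Of 80 cytosolic ribosomal protein genes tested, 57 were lower by over 1 (71.2% against 11.6% of all genes) and 0 higher, with a median of -1.28. Examples are rpl10, a protein of the large subunit, from 2551 to 630 FPKM, and rack1, a scaffold on the small subunit, from 3301 to 890 FPKM. The summed level of initiation factors against ribosomal proteins went from 0.0731 to 0.315, a within-library change of 4.30-fold. Of 14 genes in the elongation list 5 rose and 2 fell, or 35.7% and 14.3%, close to the 33.3% and 11.6% of all genes. Not all of them are cytosolic elongation factors. The list also holds eef2k, for a kinase that acts on eEF2, and the mitochondrial factors tsfm and gfm1. Of these eef2k and tsfm rose, with differences of 2.23 and 1.96, and gfm1 was at -0.26. The list had a median of 0.16, which is -0.33 after subtracting the all-gene median, and the latter changed sign to 0.13 where both libraries had to reach 1 FPKM and to 0.34 with the expression trend removed. The rises included eef1e1, a scaffold of the tRNA synthetase complex, from 14.7 to 90.8 FPKM, and eefsec, which delivers selenocysteine, from 1.70 to 12.4 FPKM. By contrast eef2b, which moves the ribosome along the mRNA and was picked for its abundance after its values were seen, fell from 1194 to 412 FPKM, and eef1a1l1, picked likewise, was at 3412 and 1900 FPKM. The elongation sum against ribosomal proteins changed by 1.63-fold, and initiation against elongation by 2.63-fold.

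Termination and recycling factors lay higher than the initiation factors, with a median of 1.64. Of the 9 genes 7 were higher (77.8% against 33.3% of all genes) and 0 lower (against 11.6%). pelo, which rescues stalled ribosomes, went from 13.8 to 87.9 FPKM, and abce1, which splits ribosomes after termination, from 34.3 to 186 FPKM. Both mitochondrial initiation factors rose (against 33.3% of all genes), mtif2 from 1.25 to 10.8 FPKM and mtif3 from 7.01 to 24.0 FPKM. The mtif2 values rest on only 9 control reads and 74 reads of the other library. The list of cytosolic tRNA synthetases and scaffold proteins of their complex held 22 genes, with a median of 1.03. Of these 11 were higher (50%) and 5 lower (22.7%, against 11.6% of all genes). The lower genes were the synthetase genes iars1 and wars1 and the scaffold genes aimp2 and aimp1, the last in both copies. The excess of lower genes is thus not one of the synthetases themselves. gars1 went from 24.8 to 155 FPKM and yars1 from 27.6 to 157 FPKM, for glycine and tyrosine. The list of poly(A)-binding genes also holds pabpn1 and the partner genes paip1 and paip2b, so not all products contact eIF4G from the mRNA tail. It had a median of -0.67, with 0 of 6 higher and 1 lower, against 33.3% and 11.6% of all genes. The lower gene, pabpc1b, fell from 76.5 to 27.5 FPKM. paip1, a partner of the poly(A)-binding protein, was at 13.0 and 26.03 FPKM, a difference of 0.95, and was the only 1 of the 6 above 0. The most abundant, pabpc1a, picked after its values were seen, was at 762 and 502 FPKM, a difference of -0.60.

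The regulators of initiation were split. Of 12 genes for eIF2 kinases, phosphatases and their adaptors 6 were higher (50% against 33.3% of all genes) and 0 lower (against 11.6%), with a median of 0.90. The adaptor gene nck1 rose in both copies, from 16.3 to 68.9 FPKM (ENSDARG00000075369) and from 10.7 to 37.5 FPKM (ENSDARG00000074262). The kinases themselves, added here for their role after their values were seen, were low: eif2ak1, the haem-sensing kinase, rose from 2.22 to 8.74 FPKM and eif2ak4, the amino acid sensor, was at 4.45 and 2.19 FPKM, a difference of -0.77. eif2ak3 was at 3.68 and 6.28 FPKM and eif2ak2 at 0.776 and 1.32 FPKM, differences of 0.64 and 0.39. Of 22 stress-response genes downstream of eIF2 phosphorylation, 6 were higher and 3 lower (median 0.73), that is, 27.3% and 13.6% against 33.3% and 11.6% of all genes. psat1, for serine synthesis, went from 14.0 to 98.6 FPKM and nupr1a, a stress-induced nuclear protein, from 36.02 to 9.56 FPKM. Of 29 mTOR pathway genes 9 were higher and 4 lower (31.0% and 13.8%, close to all genes), and their median of 0.39 lay just under that of all genes. rhebl1, a GTPase of the Rheb family, went from 14.2 to 111 FPKM, and pdcd4a, which in mammals encodes an inhibitor of eIF4A, from 30.5 to 148 FPKM. Their paralogs, added after their values were seen, differed in sign: rheb fell from 31.4 to 6.78 FPKM, and pdcd4 was at 26.2 and 16.2 FPKM, a difference of -0.67.

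**Figure D5:**
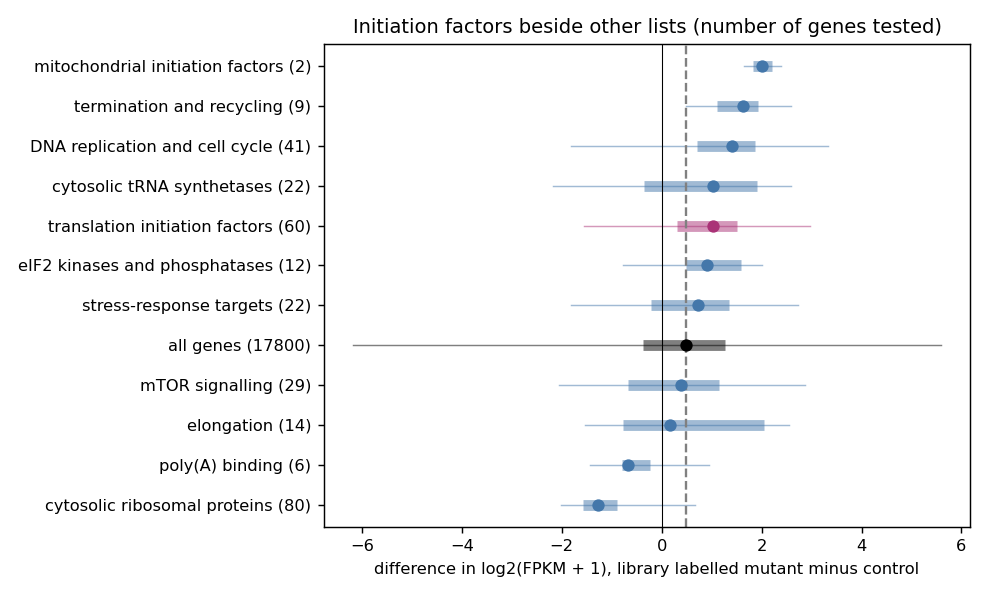
Difference in log2(FPKM + 1), library labelled mutant minus control, for the initiation factors and 10 other gene lists beside all genes: points are medians, thick bars the range from the lower to the upper quartile, and thin lines the full range. The initiation factor median of 1.02 lies between those of all genes (0.49) and of termination and recycling (1.64), and the ribosomal protein median of -1.28 is the lowest.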

How the data were processed

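RNA-seq of 1 control library and 1 library labelled homozygous for smyd4 L544Efs*1 was deposited by the authors as 1 FPKM value per gene and library. The unit was recognized from the values. The submitters' processing notes name Bowtie2 2.0.6 and TopHat2 2.0.9, and the counting rule, genome build and annotation are not given in the sources used here, so no coordinates are printed. Symbols, printed in lower case, were matched to 26433 of 33396 identifiers. Differences were computed as log2(FPKM + 1) for genes that reached 1 FPKM in at least one of the libraries, and called past 1. With 1 library per group no test was run. Whole reads were recovered from FPKM ratios as the smallest numbers that give the values, covering 91.5% and 90.9% of the totals. They served for TMM scaling (30% and 5% trims) and for exact intervals, which cover counting error only. Tested factors had 60 to 12583 control reads and 151 to 26347 reads in the other library. As alternatives, libraries were scaled by TMM, by the median of ratios or by the upper quartile, the pseudocount was set to 0.1, the filter was changed, or lowess trends (span 0.3) on length or level were removed. Every member could be named, and per list the 2 genes that differed most and reached 10 FPKM. The members and lists were chosen with earlier results of these data known. Scripts (Python 3.11.15 with scipy 1.17.1, numpy 2.4.6, statsmodels 0.14.6, pandas 2.3.3 and matplotlib 3.10.9) were tested on simulated data. The columns of other samples numbered 0.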

Additional observations from a re-analysis of the deposited data

How the results depend on the processing

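The count of 31 higher and 1 lower initiation factors became 16 and 7 under TMM scaling, 15 and 7 under median-of-ratios scaling, 10 and 9 under upper-quartile scaling, 13 and 4 with the gene length trend removed, and 20 and 4 with the expression trend removed. Relative to the median of all genes tested, a setting chosen after seeing the data, it was 16 and 6. The background moved too, with 21.2%, 21.1%, 17.3%, 18.7%, 18.6% and 18.6% of all genes higher and 19.3%, 19.4%, 23.1%, 20.2%, 20.3% and 21.5% lower in the same order. The median of all genes went from 0.49 to 0.04, 0.04, -0.13, 0.02 and 0.04 under the scalings and trend removals in that order. Each of them, the length trend included, thus also removed most or all of the all-gene shift. The median of the factors minus that of all genes, 0.53, was 0.41 with a pseudocount of 0.1, 0.81 with no filter on low values, and 0.21 where the higher of both values reached 10 FPKM, also chosen after seeing the data. The ribosomal protein median minus that of all genes, -1.78, was -1.90, -1.47 and -2.11 under these, -1.48 with the length trend removed and -1.09 with the expression trend removed. The cause of these moves was not tested. Over the 8 planned and 2 added settings, 10 of the 31 factors stayed over 1: eif5a2, eif1axa, the lesser eif2s1 copy, eif3ea, eif3l, the major eif3j copy, eif4e, eif4eb, eif4e1c and eif4e3. The same share over all genes was not computed, so this count is not read as a result about the family. All 31 stayed above 0, which says little. They were picked for a difference over 1, and no scaling removes more than 0.71. Of the 60 factors, 40 lay above the all-gene median under each of the 3 scalings, which shift all genes nearly alike and so can hardly change this count. It was 37 with a pseudocount of 0.1 and 38 with the expression trend removed. With at least 1 FPKM in both libraries it was 42. It was 47 of 61 with no filter on low values, and 32 of 58 where the higher value reached 10 FPKM. No paired analysis was possible because each group has 1 library, and no replicate could be left out. Counting error was at most 0.45 on the log2 scale, with a median half-width of 0.10. For some members called higher the interval of the ratio reached below 2, such as eif4a3 (1.87 to 2.18) and eif3m (1.84 to 2.31). Counting error alone could thus move some calls near the threshold. The spread between embryos or dissections is unknown.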

Other observations

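Beside the translation machinery, the list of cell cycle and DNA replication genes lay higher than the initiation factors. Of 41 tested 26 were higher by over 1 (63.4% against 33.3% of all genes) and 3 lower, with a median of 1.42 against 1.02 for the factors and 0.49 for all genes. cdc20, which activates the ubiquitin ligase that ends mitosis, went from 10.9 to 118 FPKM, and fen1, a nuclease of lagging strand synthesis, from 14.8 to 130 FPKM. Across the 60 initiation factors, the Spearman correlation of the difference was 0.05 with recovered gene length and -0.13 with mean level. These genes share the libraries and are not independent replicates, and recovered lengths are lower bounds.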
